A study of Drosophila melanogaster with 3 samples.

Results

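The gap genes hb, Kr, kni, gt and tll and the pair-rule genes eve, ftz, h, run and odd were examined for called regions of tagged CG13775. The 10 genes were taken by symbol from the Ensembl annotation of Drosophila melanogaster, out of 13968 protein-coding genes. For 9 of them the symbol matched directly, and h (hairy, FBgn0001168) was matched through its synonym because the annotation lists it as hry. Around each gene, every called region with its summit inside the gene or within 10 kb of either end was collected, and the stretch so defined is called the locus.

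Chromatin immunoprecipitation and sequencing (ChIP-seq) had been carried out with an anti-GFP antibody on whole embryos aged 0 to 24 h, males and females together, from a transgenic line with GFP at the C terminus of CG13775. The 3 libraries form 1 group, biological replicates 1, 2 and 4 per the labels, and no other genotype or treatment is compared. No input or untagged library was analysed here, so none of the values below has a background measured in the same way, and the read depth of the libraries is unknown. Each library averages over all cells and stages of the embryo, so a region bound in few cells and a region weakly bound in many cannot be told apart.

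Gap genes encode transcription factors that are switched on in broad domains along the anterior-posterior axis of the early embryo by maternal gradients, and they repress one another at their borders. Pair-rule genes read these domains and are expressed in stripes that set the alternating parasegments. Many of these genes are known for compact transcription units flanked by separate enhancers, each of which drives expression in part of the pattern, and several are used again later in the nervous system.

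Regions came from 3 kinds of list. Each replicate has a relaxed list of 30000 regions, which includes background, and the pooled libraries have a list of the same length. The optimal list holds the 5862 pooled regions that passed the authors' irreproducible discovery rate (IDR) threshold, a filter on agreement between replicates. Every region carries the signal value of the authors' peak caller, whose scale is not given in the sources used here, and signal and its rank were compared only within a list. The median signal was 67.2 in the pooled list and 268 in the optimal list, and the lowest signal in the optimal list was 151. A region was called promoter when its summit lay within 500 bp of a transcription start site (TSS) of the gene, and distal when it lay over 500 bp from every annotated TSS of any gene.

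Promoter peaks were found at few of the segmentation genes, and at a share near that of all genes. In the optimal list hb and h, 2 of the 10 genes, had a summit within 500 bp of an own TSS, where 26.2% of all protein-coding genes did. In the pooled list 5 of the 10 genes, hb, kni, h, run and odd, had a promoter region, against 54% of all protein-coding genes. With only 10 genes, both counts were near what the background share gives. When each replicate list was cut to its 5862 strongest regions, called the restricted list below, a promoter region was found at 1, 1 and 2 of the 10 genes in replicates 1, 2 and 4, and the corresponding shares of all protein-coding genes were 24.96%, 25.5% and 27.4% (25.9% ± 1.27, SD, n = 3). The whole replicate lists differed more, with a promoter region at 4, 5 and 8 of the 10 genes and at 49.5%, 48.6% and 55.2% of all protein-coding genes. Replicate 4 held the most members in both versions. In the restricted lists the members called were hb in replicates 1 and 4 and h in replicates 2 and 4. No member had a promoter region in the restricted list of every replicate. The share of all protein-coding genes that did is not given here, so that count has no background beside it.

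Around the promoters the loci were not empty. The pooled list placed 68 regions, or 57 non-overlapping intervals, in 9 of the 10 loci, with none in the gt locus. The median was 7 regions per locus for the members and 7 for all protein-coding genes. The makeup differed from that median: distal regions numbered 5.5 per member locus at the median and 3 per locus over all genes, and the members' loci also held more distal sequence, 21.2 kb against 16.9 kb. Per kb of distal sequence the medians were 0.237 and 0.164 regions. This difference depended on h and on the list. Over the member loci together the pooled list gave 0.266 per kb, and 0.202 without h, with 0.191 for all protein-coding genes. Without h the replicate lists gave 0.159, 0.202 and 0.207 in replicates 1, 2 and 4, with 0.201, 0.202 and 0.191 for all protein-coding genes. Of the 68 regions, 56 were distal, 9 lay at the gene's own promoter and 3 at the promoter of another gene. Over the whole pooled list most regions were distal too, 20079 of 30000. Regions at promoters of other genes numbered 0 per member locus at the median and 2 per locus over all genes. By annotation, 48 of the 68 summits were intergenic, 7 lay in coding exons and 6 in introns. Shares of these annotation classes over all pooled regions are not given here.

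**Figure D1:**
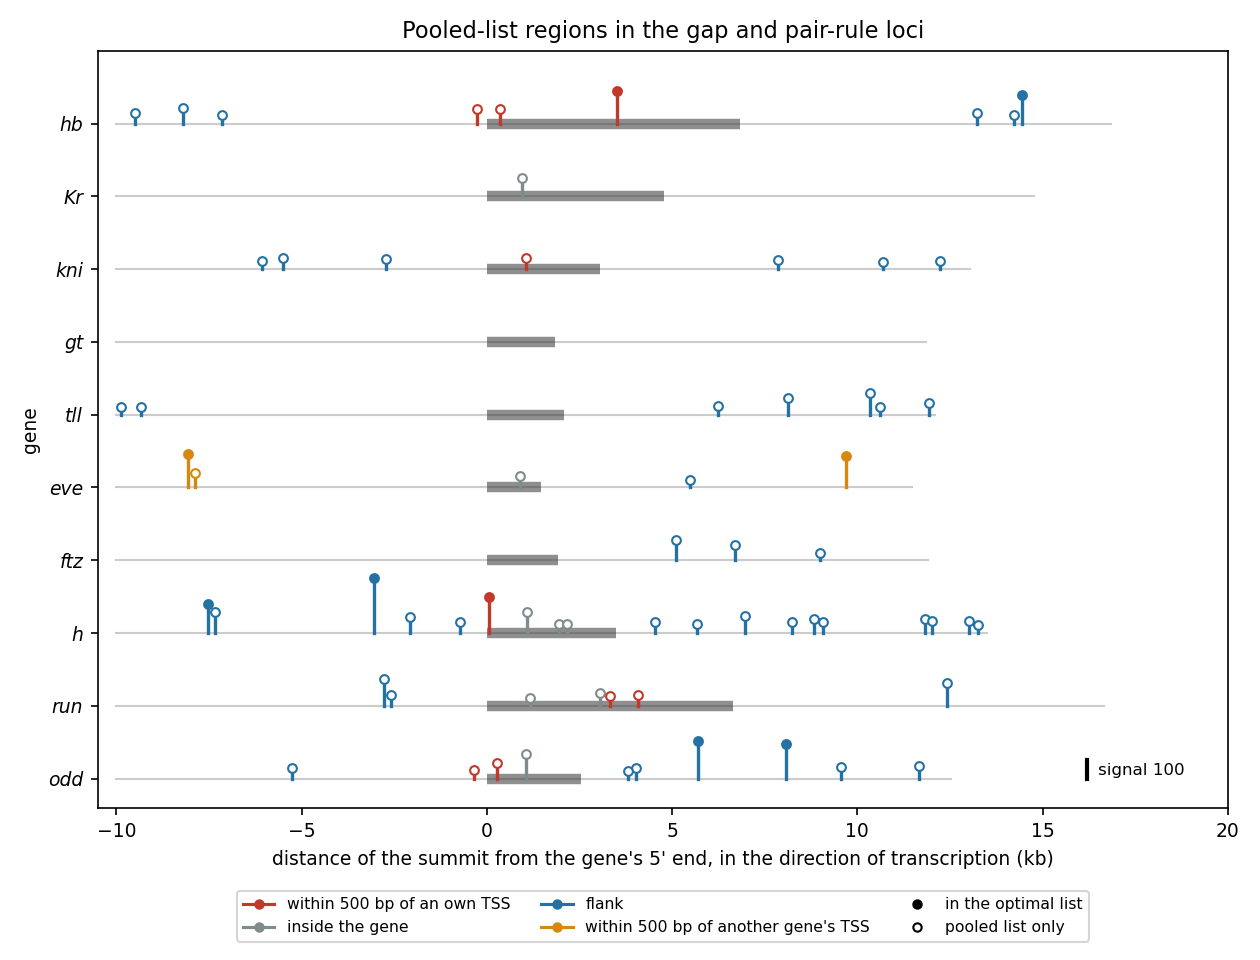
Map of the 68 pooled-list regions. The horizontal axis gives the distance of each summit from the 5′ end of its gene in kb, in the direction of transcription, with 1 row per gene and the gene body as a thick bar. Stem height is signal (scale bar, signal 100), colour gives the class of the region and filled points mark the 9 optimal peaks. The 19 regions of the h row stand out, the gt row is empty, and the filled points sit in the hb, eve, h and odd rows.

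Few of these regions reached the optimal list, and those that did ranked low in it. The loci held 9 optimal peaks, 13.2% of their pooled regions, where 19.5% of all pooled regions were optimal. Among the 56 distal regions 5 were optimal (8.93%, with 13.6% of all distal pooled regions), and among the 9 own-promoter regions 2 were optimal (22.2%, with 31.6% of all pooled regions near a TSS). A distal optimal peak was present in 3 of the 10 loci, hb, h and odd, where 28.8% of all protein-coding genes had one. Of the 9 optimal peaks only the peak 3045 bp upstream of h had a signal above the median of the optimal list. Gap loci held 24 pooled regions with 2 optimal peaks and pair-rule loci 44 with 7. The h locus alone accounted for 19 of those 44 regions and 3 of the 7 peaks, and without h the pair-rule loci held 25 regions and 4 peaks.

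Few of these peaks were supported by the strong regions of every replicate. Of the 9 optimal peaks, 2 overlapped a region in the restricted list of every replicate, the peak 3045 bp upstream of h and the peak 5696 bp downstream of the odd start, while 73.3% of all optimal peaks did. Because 8 of the 9 fell among the 2931 optimal peaks of lowest signal, the closer background is the share in that set, 48.1%, and 1 of those 8 was supported in every replicate. In the unrestricted replicate lists, which include background, 8 of the 9 had a region in every replicate. The share of all optimal peaks that did is not given here, so this count has no background beside it. Since the same libraries went into the optimal list, these counts are descriptions. They also depend on the libraries used, with 4 of the 9 supported when replicate 2 or replicate 4 was left out and 3 when replicate 1 was. For these counts too no share of all optimal peaks is given.

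The h gene encodes a basic helix-loop-helix repressor that acts as a primary pair-rule gene. It lies on the plus strand at chr3L:8675759-8679253 of dm6, and no other annotated gene starts within 10 kb of it. Its locus held 19 pooled regions, more than any other member, and the replicate lists placed 21, 18 and 16 regions there in replicates 1, 2 and 4 (18.3 ± 2.52, SD, n = 3). The 3 optimal peaks were at the promoter, 51 bp downstream of the upstream start in the 5′ untranslated region, and at 3045 bp and 7532 bp upstream in intergenic sequence. The strongest was the peak 3045 bp upstream, with signal 303 and pooled rank 2436. The bases at the upstream summits are shown because these are the distal optimal peaks of h. In each window of 101 bp the capitals mark the central 11 bases, at the summit, and the plus strand of dm6 is given.
h summit 3045 bp upstream, chr3L:8672664-8672764: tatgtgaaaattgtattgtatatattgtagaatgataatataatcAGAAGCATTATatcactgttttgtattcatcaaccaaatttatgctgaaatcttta
h summit 7532 bp upstream, chr3L:8668177-8668277: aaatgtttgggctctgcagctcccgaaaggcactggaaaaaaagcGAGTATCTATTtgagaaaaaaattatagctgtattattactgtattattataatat

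The window 3045 bp upstream of h is poor in G and C, at 22.8%, and the window at 7532 bp holds 31.7%, the same as the median over all distal optimal summits in the genome. The peak 3045 bp upstream had ranks 2863, 1427 and 3362 in replicates 1, 2 and 4, with signals of 88.9, 95.2 and 117. It lay well inside the restricted list of every replicate. The peak 7532 bp upstream had signal 162 in the pooled list and ranks 5251, 5823 and 6174, so replicates 1 and 2 held it inside their restricted lists and replicate 4 just outside. The promoter peak had signal 196 and pooled rank 4307, with replicate ranks of 7822, 5626 and 2578. Replicate 4 ranked the promoter above the peak 3045 bp upstream, and replicates 1 and 2 ranked it below.

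The remaining h regions were outside the optimal list and spread on both sides. Upstream, 3 further regions had signals of 60.6, 89.8 and 115.1, the last of which overlapped the optimal peak at 7532 bp. Inside the gene, the intron held a region of signal 117 and the coding exons held regions of 51.2 and 48.9. The intron region had rank 5171 in replicate 2, inside its restricted list. The upstream region of signal 89.8 had rank 5572 in replicate 1, also inside its restricted list. The 10 regions downstream of the gene had signals from 45.3 to 92.5 and reached to 13260 bp past the 5′ end. With 18 distal regions in 22.3 kb, the h locus held 0.807 distal regions per kb, a density higher than that of 99.6% of protein-coding genes. In the single lists the share of genes with a lower density was 99.9%, 99.9% and 98.0% in replicates 1, 2 and 4. Merging overlapping regions left 13 distal regions at h and a share of 99.4%. The comparison was added after the count at h had been seen, so it describes this locus and carries no test.

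**Figure D2:**
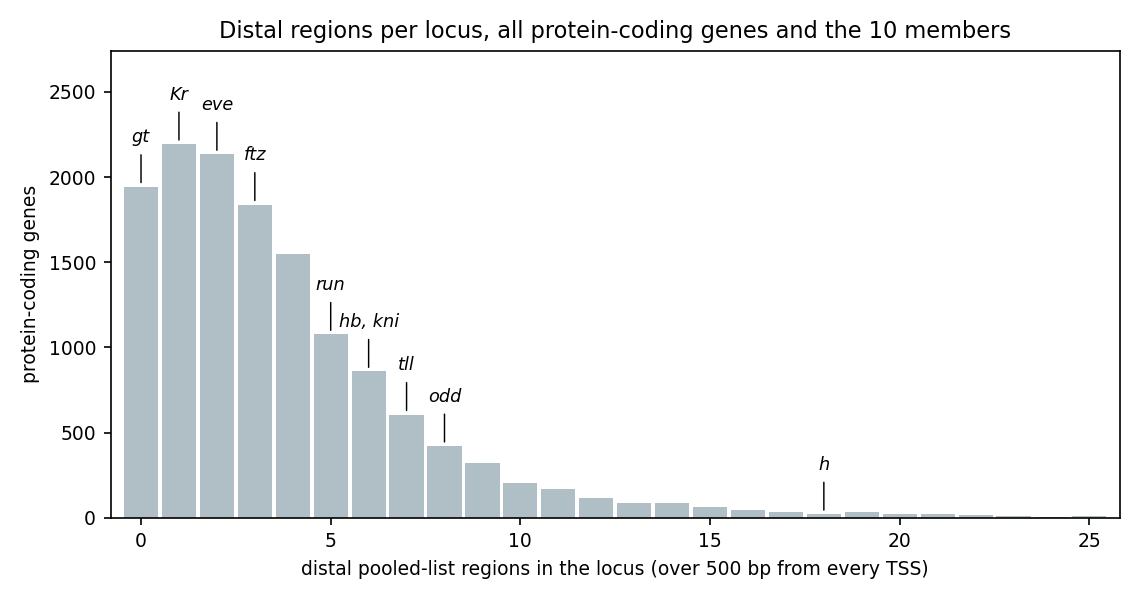
Number of distal pooled-list regions per locus (horizontal axis) against the number of protein-coding genes with that count (bars, vertical axis), with the 10 members marked at their counts. The axis ends at 25 regions, while the highest count of any gene was 100. The h locus, at 18, lies in the right tail, and the other members lie between 0 and 8.

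The odd gene encodes a zinc-finger repressor and lies on the minus strand at chr2L:3604224-3606756. Its locus held 10 pooled regions, and the replicate lists placed 9, 6 and 11 there. Both optimal peaks were downstream of the gene in intergenic sequence, at 5696 bp (signal 208, pooled rank 4030) and 8082 bp (signal 188, rank 4531) from the start. Both are printed because the distal peaks outranked the promoter of odd in all 3 replicates. Capitals again mark the central 11 bases and the plus strand is given.
odd summit 5696 bp downstream, chr2L:3601010-3601110: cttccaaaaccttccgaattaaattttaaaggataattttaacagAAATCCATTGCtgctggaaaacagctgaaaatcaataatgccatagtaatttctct
odd summit 8082 bp downstream, chr2L:3598624-3598724: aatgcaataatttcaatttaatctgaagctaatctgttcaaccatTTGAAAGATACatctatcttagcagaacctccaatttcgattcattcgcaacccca

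The peak 5696 bp downstream of the odd start had ranks of 5164, 5163 and 3504 in replicates 1, 2 and 4. The peak at 8082 bp had ranks of 5157, 6971 and 4883, so only replicate 2 held it outside its restricted list. The promoter regions of odd, 271 bp downstream and 331 bp upstream of the start, were weaker, with pooled signals of 84.7 and 46.1, and neither was optimal. A summit in the coding exon, 1061 bp from the start, had signal 137 and rank 6611. The strongest distal region of odd was the peak at 8082 bp in replicate 1 and the peak at 5696 bp in replicates 2 and 4. The best promoter signal of odd was 31.5, 19.97 and 33.6 in replicates 1, 2 and 4, and the best distal signal was 54.95, 35.3 and 114. The log2 ratio of promoter to distal signal was therefore negative in 3 of 3 replicates, at −0.80, −0.82 and −1.76 (mean −1.13 ± 0.55, SD, n = 3). The exact two-sided sign-flip permutation test gave p = 0.25, the smallest value this test allows with 3 replicates, so it could not pass the threshold of 0.05. With a flank of 20 kb in place of 10 kb the mean log2 ratio at odd was −2.39. A wider flank can only keep or lower this ratio, because the strongest distal signal is then sought in more sequence. At 10 kb the distal sequence of odd already spanned 20.6 kb, far more than the promoter window, so the ratio does not compare equal lengths.

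The hb gene encodes a zinc-finger protein of the anterior domain, and it is transcribed both maternally and in the zygote from separate promoters. It lies on the minus strand at chr3R:8690980-8697822 and its annotated starts are at 8694600 and 8697822. Its optimal promoter peak had its summit in an intron, 292 bp downstream of the start at 8694600. The other start had 2 weaker pooled regions on either side, at 367 bp downstream and 251 bp upstream, with signals of 78.0 and 80.6. A distal optimal peak lay 14440 bp downstream of the 5′ end and 1794 bp from the nearest annotated start, that of CG44227. The bases under both optimal summits are printed because hb was the gap gene with optimal peaks. Capitals again mark the central 11 bases and the plus strand is given, so the hb strand is the reverse complement.
hb promoter summit, chr3R:8694258-8694358: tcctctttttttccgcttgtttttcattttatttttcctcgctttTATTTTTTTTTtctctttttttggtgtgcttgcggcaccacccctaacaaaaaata
hb downstream summit, chr3R:8683332-8683432: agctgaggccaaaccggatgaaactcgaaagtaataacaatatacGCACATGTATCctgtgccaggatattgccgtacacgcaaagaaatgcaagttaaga

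The hb promoter peak had pooled signal 177 and rank 4896. Its signal was 51.4, 28.9 and 92.3 in replicates 1, 2 and 4, with ranks of 5549, 6621 and 4655. The distal peak had pooled signal 157 and ranks of 7708, 18204 and 3988, so it was among the stronger regions of replicate 4 and among the weak regions of replicate 2. The log2 ratio of the best promoter to the best distal signal was 0.37, 0.51 and −0.16 (mean 0.24 ± 0.36, SD, n = 3), and the exact sign-flip test gave p = 0.5. In replicates 1 and 4 the best distal region was the peak 14440 bp downstream. In replicate 2 it was another region, 9499 bp upstream, with signal 20.3 and rank 11229, so the ratios did not all compare the same site. The number of regions in the hb locus also varied, with 5, 10 and 16 in replicates 1, 2 and 4.

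The other gap genes had no optimal peak. The kni gene, which encodes a protein of the nuclear receptor family, lies at chr3L:20692330-20695378 and had a single promoter region in the coding exon, 247 bp from a start, with signal 63.2. Its strongest distal region, 5511 bp upstream, had signal 61.7. The log2 ratio of promoter to distal signal was 0.49, −0.26 and −0.90 in replicates 1, 2 and 4 (mean −0.22 ± 0.70, SD, n = 3; exact sign-flip p = 0.75). It changed sign to 0.12 without replicate 4, and it was −1.92 with a flank of 20 kb. The strongest distal region of kni was not the same one in each replicate. It lay 12242 bp downstream of the 5′ end in replicate 2 and 7873 bp downstream in replicate 4, and in replicate 1 it matched no pooled region. The replicate 4 promoter region, of signal 33.9, did not overlap the pooled promoter region. The ratios of kni thus differed in sign and compared different sites.

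The tll gene, which encodes a nuclear receptor that acts at the poles and later in the brain, lies at chr3R:30852315-30854400 and had 7 pooled regions, all of them flanking and none within 500 bp of its start. The strongest, 10343 bp downstream of the start, had signal 117 and ranks of 16626, 4719 and 9156 in replicates 1, 2 and 4. It entered the restricted list of replicate 2 alone. The gt gene, which encodes a basic leucine zipper protein, lies at chrX:2427113-2428967 and had no pooled region within 10 kb. Its locus had 0, 3 and 1 regions in the lists of replicates 1, 2 and 4, and the region of replicate 4 was a promoter region of rank 26269.

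The Kr gene encodes a zinc-finger protein of the central domain, at chr2R:25226611-25231394. It had 1 pooled region, in the coding exon 946 bp from the start, with signal 99.8 and rank 9412, and the annotated gene CG9380 overlaps it. Replicates 1 and 4 had a region there, with ranks of 7747 and 16425, and replicate 2 had none. The Kr locus thus held fewer pooled regions than any other member but gt.

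Of the other pair-rule genes, eve was the only one whose locus held optimal peaks. The eve gene encodes a homeodomain protein and lies at chr2R:9979319-9980795, in a gene-dense stretch with 6 other annotated genes starting in its locus. Both optimal peaks lay at promoters of neighbours and not at eve. One, with signal 185, lay 104 bp from a start of CG12134, and the other, with signal 171, lay 134 bp from a start of TER94, which encodes an AAA ATPase, and 260 bp from lncRNA:CR45324. The first had ranks of 4593, 3935 and 9001 in replicates 1, 2 and 4. The second had ranks of 4240 and 6502 in replicates 2 and 4 and no region in replicate 1. Within eve itself the strongest pooled region was in the coding exon, 890 bp from the start, with signal 61.9, and no pooled region lay within 500 bp of its TSS. Promoters of other genes thus held 3 of the 5 pooled regions in the eve locus.

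The ftz gene, which encodes a homeodomain protein and sits within the Antennapedia complex at chr3R:6864324-6866244, had 3 pooled regions, all downstream. The strongest lay 5103 bp from the start, with signal 113 and ranks of 7991, 11191 and 7369, outside every restricted list. The run gene, which encodes the Runt-domain founder of the RUNX family, lies at chrX:20690670-20697321 and had 7 pooled regions. Its strongest, 2774 bp upstream, had signal 147 and pooled rank 6041, just below the optimal list, and ranks of 7382, 7160 and 6245. A region 12433 bp downstream had signal 126 and ranks of 5079, 8266 and 12413. The promoter regions of run, at the internal start, had signals of 58.5 and 52.2. For run the log2 ratio of promoter to distal signal could be formed only in replicates 2 and 4, at −0.83 and −0.84, so no test was made.

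**Figure D3:**
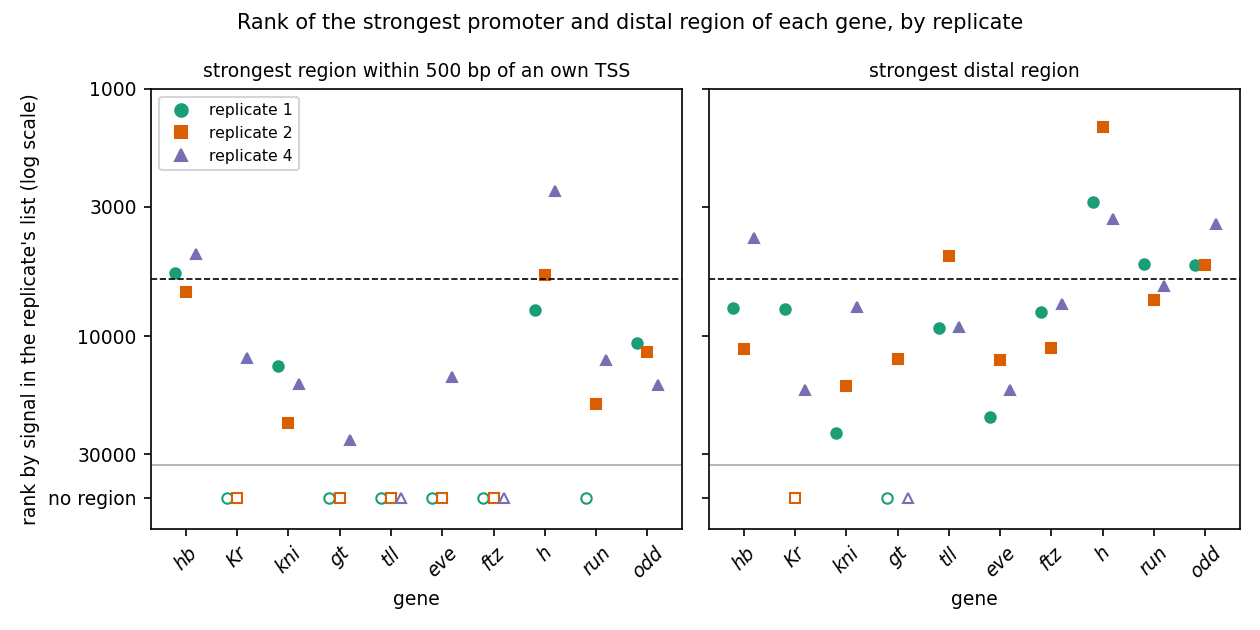
Rank by signal (vertical axis, log scale, strongest at the top) of the strongest promoter region (left) and the strongest distal region (right) of each gene, 1 symbol per replicate. The dashed line is the restricted list's limit at rank 5862 and open symbols below the grey line mark replicates with no region. On the left hb and h alone have symbols above the line, and on the right h and odd have all 3 symbols above it, while hb, tll and run have 1 each.

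Among the 4 genes with a promoter and a distal region in every replicate, hb, kni, h and odd, the sign-flip test chosen could call no ratio different from 0, because with 3 values its p cannot fall under 0.25 whatever the data. The h ratio was −1.18, −1.53 and 0.27 in replicates 1, 2 and 4 (mean −0.81 ± 0.95, SD, n = 3; exact sign-flip p = 0.5), so replicate 4 went against the others. Over the member loci together, the density of called regions in the replicate lists was 0.640 ± 0.177 per kb near own starts and 0.252 ± 0.0126 per kb in distal sequence, a ratio of 2.54 ± 0.662 (SD, n = 3). All protein-coding genes gave a ratio of 3.18 ± 0.697. The members' ratio was lower in 3 of 3 replicates, with a log2 difference of −0.33 ± 0.07 (exact two-sided sign-flip permutation test, p = 0.25, again the smallest this test can give). This difference rested on h: without it the ratio was 3.26 ± 0.786 and the log2 difference 0.03 ± 0.16 (exact sign-flip p = 0.75), lower in 1 of 3 replicates.

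Sequence words of early embryonic regulators were sought on both strands of 101 bp windows centred on the summits. The letters CAGGTA, the core word of the pioneer factor Zelda, were present in 1 of the 68 windows (1.47%), with 2.26% of all pooled windows. GAGAG, bound by GAGA factor, was present in 9 of 68 (13.2%, with 12.0% of all). CGATA, a word of the insulator protein BEAF-32, was present in 4 (5.88%, with 13.3% of all), and the longer TATCGATA, a word of DREF that contains CGATA, in none (with 1.11% of all). Because most of the 68 regions were distal, distal windows are the closer background for these 2 words. CGATA was present in 3 of the 56 distal windows (5.36%, with 10.3% of all distal pooled windows). TATCGATA was present in 0.169% of all distal pooled windows. TGCGGATG, a word chosen from earlier results of these data, was present in 2 windows (2.94%, with 0.973% of all), those in the coding exons of eve and odd. None of the 5 distal optimal windows printed above held any of these words. Of all distal optimal windows, 2.28% held CAGGTA, 10.2% GAGAG, 10.4% CGATA, 0.257% TATCGATA and 2.68% TGCGGATG. With 5 windows and shares this low, the absence says little about these loci. The optimal promoter window of h held GAGAG and CGATA, and that of hb held none of the words.

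The other tiers of the segmentation hierarchy were counted for comparison, with every listed symbol matched. Of 6 other gap genes, 2 had an optimal promoter peak, the head genes oc (signal 178) and cnc (299), and of 7 other pair-rule genes 1 did, Ten-m (209), a teneurin gene listed here as pair-rule. Of 16 segment polarity genes 3 did, nkd, an antagonist of Wnt signalling (391), smo, the transducer of Hedgehog signalling (209), and fu, a kinase of that pathway (205). Hox genes had 2 of 8, Dfd (236) and Antp (186). These lists, with 14.3% to 33.3% of their genes, bracket the 26.2% of all protein-coding genes.

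Larger shares were counted, with no test, among maternal and terminal genes and early regulators, and they varied between replicates. The restricted lists of replicates 1, 2 and 4 had a promoter region at 5, 3 and 6 of 11 maternal and terminal genes. For the 8 early regulators and cofactors these counts were 3, 4 and 5. The shares of all protein-coding genes were 24.96%, 25.5% and 27.4%. Of 11 maternal and terminal genes 5 had an optimal promoter peak. The highest was at bcd, the anterior morphogen (349), followed by vas, an RNA helicase of the germ plasm (309, at a start shared with solo), exu, which acts in bcd mRNA localisation (281, with the start of galla-1 closer), and stau, a double-stranded RNA binding protein (224). Of 8 early regulators and cofactors 5 did, led by gro, the corepressor that h recruits (1188), Trl, which encodes GAGA factor (617), ftz-f1, the nuclear receptor partner of Ftz (175), and Stat92E, the JAK pathway transcription factor (167). Distal optimal peaks were common in these tiers: 7 of 7 other pair-rule loci had at least 1, as did 4 of 6 other gap, 9 of 16 segment polarity, 8 of 11 maternal and terminal, 7 of 8 early regulator and 6 of 8 Hox loci, against 3 of the 10 member loci and 28.8% of all protein-coding genes. Genes of these lists differ in length, and neighbours such as slp1 and slp2 share peaks, so the counts are not independent.

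**Figure D4:**
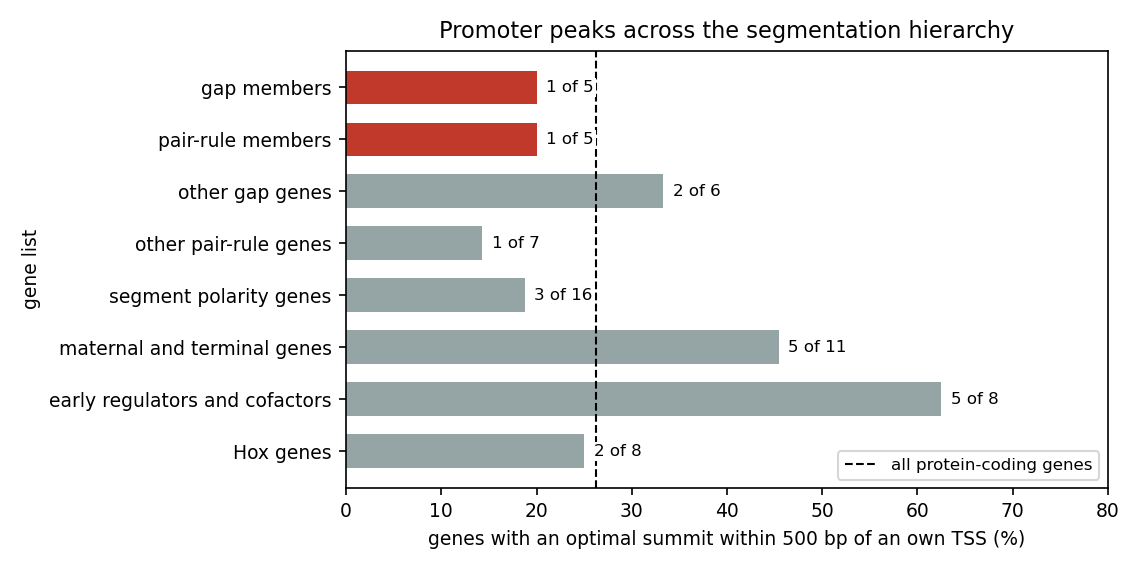
Share of genes (horizontal axis, %) in each list with an optimal summit within 500 bp of an own TSS, with the count beside each bar. The dashed line is the share of all protein-coding genes, 26.2%. Gap and pair-rule members (red) have 1 of 5 each, below the line, and early regulators and cofactors have 5 of 8.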

How the data were processed

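Per the labels, 3 ChIP-seq libraries of GFP-tagged CG13775 from embryos were sequenced after sonication to fragments of 200 to 800 bp. The authors deposited region lists in dm6 with a signal value per region, and per the submitters' records 1 control file of unstated kind, not analysed here, served each assembly. The peak caller is not given in the sources used here. The dm3 lists were not used. Gene models came from Ensembl release 115, without transposable elements, and bases from the RefSeq copy of the Release 6 assembly. The lengths of its arms cover all deposited coordinates. Calculations used Python 3.11.15, numpy 2.4.6, pandas 2.3.3 and matplotlib 3.10.9.

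Summits lay 1 base past the sum of the deposited start and offset. Replicate lists were restricted to their 5862 regions of highest signal, and regions were shared at an overlap of 1 bp. The log2 ratio of the strongest promoter to the strongest distal signal was formed within each replicate list and tested by an exact two-sided sign-flip permutation test at 0.05. Values of this signal ratio over all genes are not given here. The p-values measure the spread between these 3 libraries only. The classing of summits as promoter or flank was tested on simulated summits, and the other steps were not.

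Named genes were all members, every gene with a start within 500 bp of an optimal summit in a member locus, and up to 4 bound genes of each other list by pooled signal. Neighbours of distal peaks, overlapping genes and list genes without peaks were named with their values known. The members, lists and words were chosen with earlier results of these data known. Alternatives changed the windows, the part of each list used, the overlap and the replicates included. The density comparison for h was added after seeing the data.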

Additional observations from a re-analysis of the deposited data

How the results depend on the processing

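Of 67 alternatives to 12 results, 29 moved a count or share by over 1.5 times and 1 reversed the sign of a log2 ratio. The other 37 left counts and shares within 1.5 times, or a log2 ratio with its sign and on the same side of a threshold that the test could not pass, whatever its size. Members with an optimal promoter summit numbered 1 within 250 bp or with only the 5′ end of the gene, 0 among the 2931 strongest optimal peaks, 0 among peaks supported in every replicate, and 5 in the pooled list. Optimal peaks in the loci numbered 4 at 5 kb, 21 at 20 kb, 1 among the 2931 strongest, 2 with support in every replicate and 68 in the pooled list; distal ones numbered 2, 12, 1 and 2 under the first 4 of these. Loci whose promoter outranked every distal region in the pooled list were 2 at the main settings, hb and kni. At kni the margin was small, 63.2 against 61.7. Such loci numbered 1 at 20 kb, 1 with a promoter limit of 250 bp, 4 at 1000 bp, and 1, 0 and 1 in the restricted lists of replicates 1, 2 and 4. No share over all genes is given for this count. Peaks supported in every replicate numbered 8 in whole lists, 0 with lists of 2931 regions, and 3 to 4 when 1 replicate was left out. No share of all optimal peaks is given for these settings. Members with a promoter region in every replicate list were 4 in whole lists and 0 to 1 with a replicate left out, again without a share over all genes. The share of all genes with an optimal promoter summit was 16.4% among the 2931 strongest and 54.0% in the pooled list. The log2 ratio at kni reversed to 0.12 without replicate 4 and ranged from −0.58 to 0.12 when 1 replicate was left out. With a flank of 20 kb the log2 ratio was −1.92 at kni, −2.39 at odd and 0.13 at hb. The direction of these changes was fixed, since added distal sequence can only lower the ratio or leave it as it was. Leaving out replicate 4 gave −1.35 at h, and leaving out replicate 2 gave 0.11 at hb. The causes were not tested. At 5 kb hb lacked a distal region in at least 1 replicate list, so its mean ratio could not be computed there. No comparison between groups, paired or not, was possible because the series has a single group. Promoter and distal signal were compared within each replicate. Depth is unknown, so a gene without a region may lie under the limit of detection.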
